A study of Mus musculus with 6 samples.

Results

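The PAX, T-box and SIX-family genes code for 3 groups of DNA-binding developmental factors, and 29 of them were followed here among 21631 protein-coding genes. The members, Pax1 to Pax9, 15 T-box genes and 5 SIX-family genes, were chosen by family name with the differences in peak-covered length between old and young libraries already known. Old against young is therefore given for the members as a description. Each locus was the RefSeq span of the gene in mm10 with 10 kb on each side, and the values were the peaks that the authors called there.

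Open chromatin was mapped by Omni-ATAC, in which a transposase inserts into accessible DNA, in bone marrow macrophages of wild-type BALB/c mice. The old group came from mice over 78 weeks of age and the young group from mice of 3 weeks, with 3 libraries each and 50000 cells per library. The cells of both groups were adherent marrow cells grown in medium with serum and typed as F4/80+CD169+. The old lists held 245667, 227978 and 215947 peaks over 63.8, 48.2 and 49.0 Mb, and the young lists 243924, 223018 and 254410 peaks over 62.2, 52.4 and 66.1 Mb. Each locus was also measured on the 50000 strongest peaks per library, ranked by −log10 q, which are equal in number only. These covered 28.0, 22.4 and 23.2 Mb in old and 27.2, 24.4 and 28.0 Mb in young libraries, and are called strong peaks. Read depth is unknown, so a locus with no peak means only that none was called. Old replicate 1 and young replicates 1 and 3 had the widest coverage on both kinds of list. With total covered length as a covariate, Tbx5 was called (log2 change 1.43), and Pax7 and Six2 were not (log2 changes 0.99 on the deposited lists and 1.39 on the strong lists). With that covariate 0.224% of all loci were called wider on the deposited lists. On the strong lists 0 of 14380 loci were called at all, so that loss says nothing about Six2. The labels do not say whether the libraries came from separate mice or cultures, so the spread between them may be technical. A lower signal per cell and fewer cells with an open site cannot be told apart in bulk libraries.

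PAX factors bind DNA through a paired domain, T-box factors through the domain that names them, and SIX-family factors through a homeodomain next to a second domain that binds EYA cofactors. Most of them are known from embryonic organs, where they set the identity of limb, heart, kidney, eye, muscle or pharyngeal progenitors. Pax5, the commitment factor of B cells, and Tbx21 and Eomes, the factors of cytotoxic and helper lymphocytes, act in blood, while Mga is a widely used repressor that joins a Polycomb complex with MAX and E2F6.

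The gene starts of these factors are often rich in CpG dinucleotides, and 4 windows are shown because they span the range of results. Each runs from 250 bases before to 50 bases after a RefSeq start (GRCm38.p6, whose main chromosomes are those of mm10), 5′ to 3′ on the strand of the gene, with CpG in capitals. Six2 (chr17:85688205-85688504, minus strand) has a start peak that was strong in the old libraries alone. Mga (chr2:119896978-119897277, plus strand) has the strongest start peak of the members with a listed RefSeq start. Six4 (chr12:73113196-73113495, minus strand) holds the one motif match, and the window of Pax7 (chr4:139832919-139833218, minus strand) lay under no peak in any library.
Six2: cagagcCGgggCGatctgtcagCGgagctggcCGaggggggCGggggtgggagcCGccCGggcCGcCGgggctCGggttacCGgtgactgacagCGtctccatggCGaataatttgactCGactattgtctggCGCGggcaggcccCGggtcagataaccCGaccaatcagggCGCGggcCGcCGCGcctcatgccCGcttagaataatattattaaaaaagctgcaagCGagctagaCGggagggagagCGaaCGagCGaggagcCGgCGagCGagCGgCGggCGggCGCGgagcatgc
Mga: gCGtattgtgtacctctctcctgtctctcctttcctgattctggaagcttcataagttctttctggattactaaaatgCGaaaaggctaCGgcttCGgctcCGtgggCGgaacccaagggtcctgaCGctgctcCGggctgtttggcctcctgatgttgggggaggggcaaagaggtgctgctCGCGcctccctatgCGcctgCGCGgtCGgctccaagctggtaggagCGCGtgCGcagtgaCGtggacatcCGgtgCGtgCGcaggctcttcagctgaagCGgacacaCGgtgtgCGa
Six4: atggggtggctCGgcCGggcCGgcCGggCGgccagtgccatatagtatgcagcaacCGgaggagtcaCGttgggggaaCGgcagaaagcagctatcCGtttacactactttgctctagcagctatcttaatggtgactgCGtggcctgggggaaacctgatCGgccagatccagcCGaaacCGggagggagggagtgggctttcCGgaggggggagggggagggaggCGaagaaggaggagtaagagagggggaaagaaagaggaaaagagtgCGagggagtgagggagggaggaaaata
Pax7: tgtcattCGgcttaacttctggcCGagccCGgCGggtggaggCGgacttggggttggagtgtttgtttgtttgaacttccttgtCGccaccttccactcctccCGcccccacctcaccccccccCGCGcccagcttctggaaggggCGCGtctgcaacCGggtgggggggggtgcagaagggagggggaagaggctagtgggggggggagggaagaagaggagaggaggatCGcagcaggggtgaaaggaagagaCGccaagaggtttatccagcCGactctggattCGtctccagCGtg
The Six2 window had 37 CpG, the most of the 28 member windows, against 24 in Mga, 16 in Six4 and 17 in Pax7. Peaks covered 300, 296 and 300 of the 300 bases of the Six2 window in old libraries and all 300 in each young library. The Six4 window lay under a peak over all 300 bases in every library, and the Pax7 window had 0 bases under a peak in every library. These 4 windows were picked by their results, so no relation of CpG content to coverage is read from them.

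A start was matched for 23 members, of which Pax2, Pax6, Tbx1 and Six4 have more than 1. Pax3, Pax4, Tbx2, Tbx3, Tbx5 and Tbx15 were not matched, and either end of the gene was used for them where a start peak is given below. Among all genes, the median window had 15 CpG, against 16 in the member windows. The 13 members with a peak within 1 kb of a start in every library had a median of 17 CpG, and the other 10 had 10.5. Over all genes the same split gave medians of 22 and 3, so the starts without a regular peak had a higher median among the members than over all genes. A T-box motif, TCACACCT, was searched on both strands and was in 0 of the 28 member windows and in 1.16% of 21045 windows of this length. The SIX-family motif TCAGGTTTC, which does not overlap the T-box motif, was in 1 member window, that of Six4, and in 0.451% of all windows. The match lies on the strand opposite to Six4 with its first base at position 152 of the printed window. A match is a description of the letters only.

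Peaks within 1 kb of the start were present in all 6 libraries for 13 of the 23 members, or 56.5%, against 65.4% of 17274 genes. With a window of 2 kb the shares were 69.6% and 68.7%, so the order of members and all genes turned with the window. These 13 were Pax2, Pax9, Tbx1, Tbx6, Tbx18, Tbx20, Tbx21, Eomes, Mga, Six2, Six3, Six4 and Six5. Pax8, Tbx4 and Tbx19 had no start peak in any library. Pax1, Pax5, Pax6, Pax7, Tbx10, Tbr1 and Six6 had one in 1 to 5 libraries.

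Strong start peaks in all 6 libraries were found for 5 of the 23 members, Pax9, Tbx18, Mga, Six4 and Six5, against 49.6% of all genes. The strongest was that of Mga, with ranks of 5282, 4003 and 8175 in old and 3863, 4918 and 3182 in young libraries, where rank 1 is the highest −log10 q of a library. Six5, which lies beside the myotonic dystrophy kinase gene Dmpk, had ranks of 9238, 11328 and 8277 in old and 12229, 13768 and 9456 in young libraries. The ages overlapped at both genes. Six4, a muscle factor, had 11738, 6821 and 10325 in old and 24673, 16235 and 14235 in young libraries. Tbx18, a factor of the sinus node and ureter mesenchyme, had 35132, 26848 and 12732 in old and 24081, 27406 and 15551 in young libraries. Pax9, which acts in tooth and thymus formation, had 48147, 21578 and 32144 in old and 39185, 40005 and 23219 in young libraries, and for these 2 genes the ages overlapped.

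**Figure D1:**
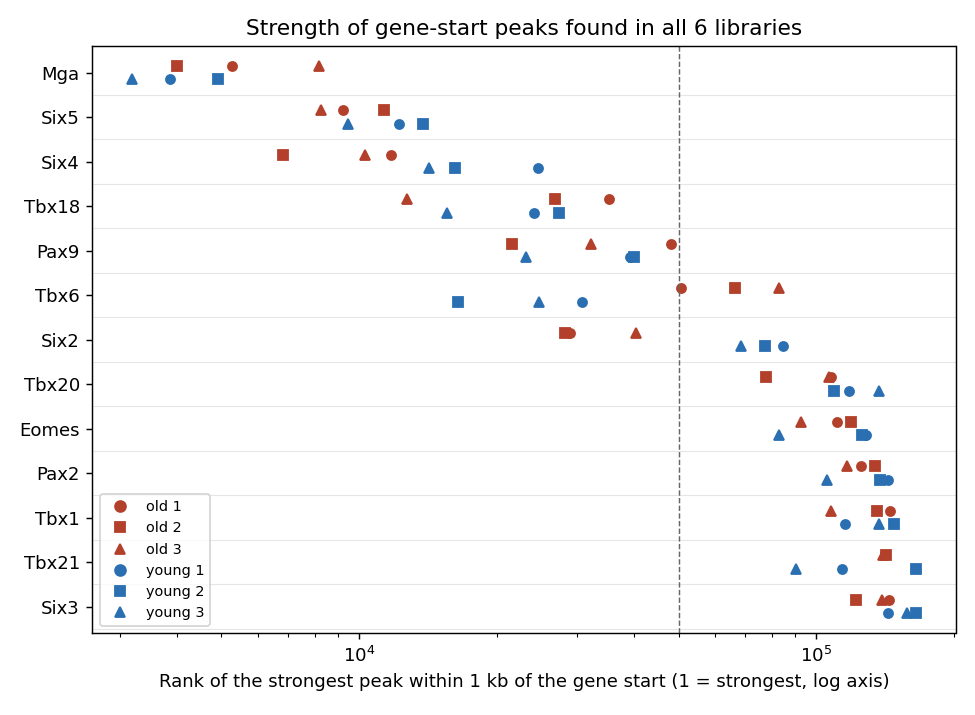
Rank of the strongest peak within 1 kb of the gene start (1 = strongest, log axis) in each old (red) and young (blue) library, for the 13 members with a start peak in all 6 libraries; the dashed line is rank 50000. Six2 lies left of the line in the old libraries alone, Tbx6 in the young libraries alone, and Mga is leftmost at both ages.

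Six2, the factor that keeps nephron progenitors undifferentiated in the kidney, had the one start whose peak was strong in the old libraries alone. The strongest peak within 1 kb of its start ranked 28931, 28210 and 40363 in old and 84503, 77212 and 68455 in young libraries. Strong peaks covered 728, 515 and 717 bp of this start region in old and 0 bp in each young library, although the deposited lists held a peak there at both ages. Over the whole region, chr17:85687998-85689541, peaks of the deposited lists covered 1376, 1018 and 1042 bp in old and 1003, 518 and 1174 bp in young libraries, which overlap. These lengths were not scaled to a common library total, so no order of the ages in width is read from them. The ages thus lay apart in the rank of the peak and not in its presence. Start peaks that were strong in 3 old and 0 young libraries occurred at 63 of 17274 genes, or 0.365%.

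A second Six2 region, chr17:85664721-85665251, lies in the gene 23.3 kb from the start, near its far end. It ranked 29170, 38053 and 28483 in old and 33854, 18975 and 26378 in young libraries, all among the strong peaks and overlapping between ages. A further region, 8.24 kb into the gene, was in all 6 libraries and strong in none. Six2 therefore carried 1 strong site shared by the ages and 1 strong in old libraries alone.

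**Figure D2:**
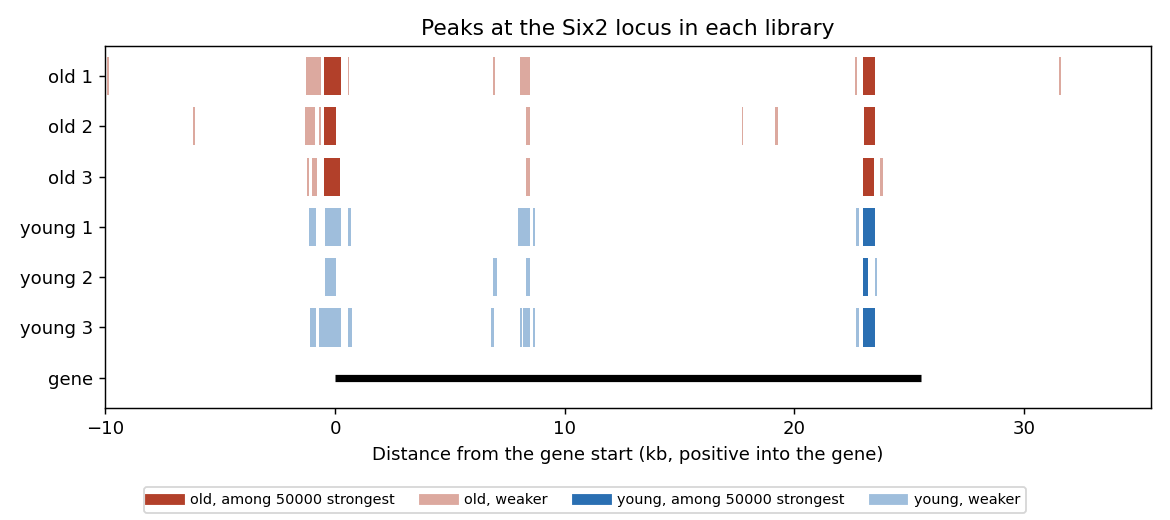
Peaks at the Six2 locus by distance from the gene start (kb, positive into the gene), one row per library, old in red above young in blue; dark bars are among the 50000 strongest peaks of the library, pale bars are weaker, and the black bar is the gene. The start peak is dark in the 3 old libraries and pale in the 3 young ones, while the site 23.3 kb into the gene is dark in all 6.

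Tbx6, a factor of the presomitic mesoderm, had the opposite pattern at a site 618 bp upstream of its start, chr7:126780715-126781016. The peak ranked 50722, 66327 and 82844 in old and 30701, 16450 and 24735 in young libraries, with old replicate 1 just past the limit of 50000. This occurred at 39 of 17274 genes, or 0.226%, and the site lies between Tbx6 and the neighbouring gene Ypel3. Of the 49 strong regions at the member loci, 24 were strong in all 6 libraries, 1 in the old libraries alone (Six2) and 2 in the young libraries alone. Those 2 were the Tbx6 site and a flank of Tbx15, chr3:99233804-99234454. The same shares were not computed over the strong regions of all loci, so nothing is read from these region counts.

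Some member loci are shared with other genes. Of the covered length at Tbx6, 99.4% lay outside the gene and within 1 kb of its neighbours Gdpd3, Ypel3, Ppp4c or Aldoa, and at Tbx10, 94.8% lay likewise at neighbours that include Nudt8. At Six5 the share was 73.4%, at Dmpk and Bhmg1, at Mga 21.8%, at Six4 19.2% and at Tbx2 8.04%. The other 23 members had 0%, so their values rest on their own gene and its flanks.

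Levels were compared between genes as the percent of the locus under deposited peaks, averaged over the 6 libraries. The median was 3.58% over the 29 members and 4.26% over all genes. PAX loci, whose genes are long, were the least covered with a median of 2.08%, against 4.99% for T-box and 4.53% for SIX-family loci. The lowest was Pax4, a pancreatic islet factor, at 0.375%, and the highest was Six5 at 12.2%. Among strong peaks the median was 0.473% over the members and 2.01% over all genes. All 29 loci had a peak in every deposited list. Strong peaks were in every library at 15 loci, in 1 to 5 libraries at 4 (Pax3, Pax6, Tbx19 and Six3), and in none at 10.

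The 10 loci without a strong peak were Pax1, Pax2, Pax4, Pax7, Tbx1, Tbx5, Tbx20, Tbx21, Tbr1 and Six6, or 34.5% of the members against 23.8% of all genes. By total length rather than share, Tbx15, a factor of skeletal and fat progenitors, was the most covered, with 8227, 5747 and 6776 bp in old and 6130.4, 6592 and 6596 bp in young libraries, scaled to a common library total. Mga followed with 4273, 4165 and 3869 bp in old and 3899.6, 4296 and 4207 bp in young libraries, and Tbx18 with 3256, 3824 and 2112 bp in old and 3608, 3068 and 3259.8 bp in young libraries. In each of these 3 loci the ages overlapped. The least covered were Pax4, Pax1, a factor of the sclerotome and thymus, and Six6, an eye and pituitary factor. Pax4 had 171, 74.1 and 171 bp in old and 56.2, 108 and 26.2 bp in young libraries. Pax1 had 367, 218 and 197 bp in old and 167, 495 and 231 bp in young libraries, and Six6 had 383, 482 and 417 bp in old and 891, 398 and 590.5 bp in young libraries. The ages overlapped in these 3 as well.

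**Figure D3:**
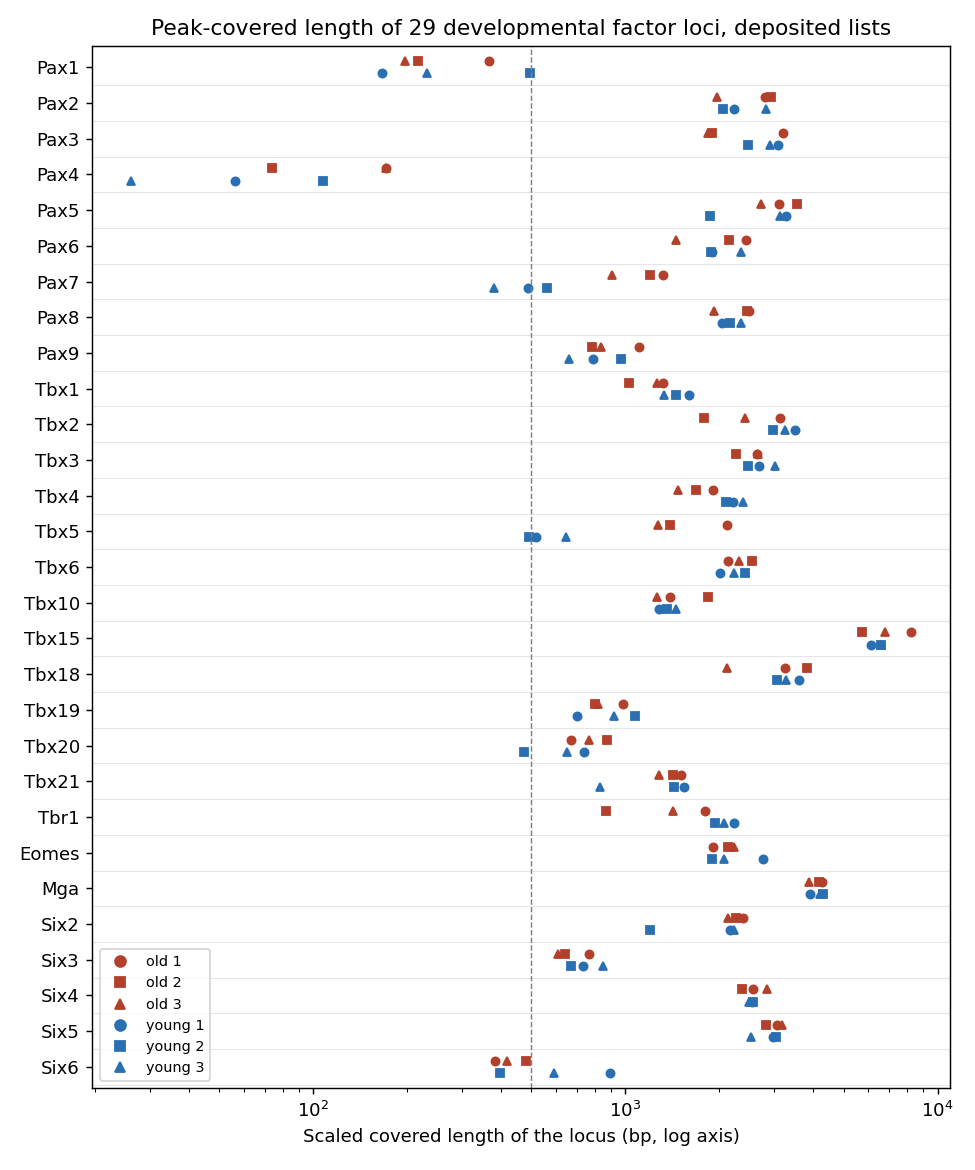
Scaled peak-covered length (bp, log axis) of the 29 loci on the deposited lists, one point per library, old in red above young in blue; the dashed line marks a length of 500 bp. Tbx5 and Pax7 have all 3 old points right of all 3 young points, while Tbr1, Tbx4 and Tbx1 have them to the left.

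The covered length was compared between the ages with limma over 16943 loci that averaged at least 500 bp, on a scale of log2(bp + 200). Of the 29 members, 27 entered, and Pax1 and Pax4 lay below the limit. Tbx5 and Pax7 were wider in old libraries (adjusted p under 0.05 over all loci), where 0.390% of all loci were called wider, and 0 members were narrower, where 0.578% of all loci were. These 2 loci were known when the members were chosen, so nothing is read from the count. At an unadjusted p under 0.05 there were 5 members of 27 in both directions together, where 12.8% of all loci were, and nothing is read from this count. The smallest adjusted limma p among the 25 not called was 0.14, for Tbx4. Of the 27, 14 had higher and 13 lower values in old libraries. Their median log2 change was 0.03, against 0.01 over all loci.

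Tbx5, which drives forelimb and heart formation, was covered over 2119.5, 1390.05 and 1274 bp in old and 518, 491 and 648 bp in young libraries. Every old value was above every young one, and the log2 change was 1.23 (SE 0.18). Of its 25 regions, 19 were in a single library and 2 were found in all libraries. Those 2 lay in the gene on chromosome 5, at 119831036-119831824 and 119868093-119868805. The first was covered over 789, 213 and 300 bp in old and 160, 125 and 44 bp in young libraries. The second was covered over 659, 286 and 633 bp in old and 186, 57 and 157 bp in young libraries. In these unscaled lengths every old value was above every young one at both sites. The other regions together had 914, 683 and 175 bp in old and 216, 277 and 541 bp in young libraries, which overlap. How often regions of other loci lie apart by age was not computed, so nothing is read from this split. No peak of the locus was strong in any library. Leaving out any single library kept the Tbx5 call, with log2 changes between 1.03 and 1.36, but it was not called without scaling to the library total (log2 change 1.10) or without the limit on low loci. Without scaling 2 of 16952 loci were called wider in all, and without the limit 0 of 21631 were.

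Pax7, the factor of muscle satellite cells, was covered over 1323, 1196 and 907 bp in old and 488, 560.2 and 379.96 bp in young libraries. The ages did not overlap, and the log2 change was 0.98 (SE 0.19). The young mean, 476 bp, was under the limit of 500 bp, so Pax7 entered the fit through its old libraries (mean 1142 bp). Its 30 regions were scattered over the gene, and 22 of them were in a single library. The 1 region in all libraries, 35.6 kb into the gene, had 303, 120 and 183 bp in old and 91, 167 and 93 bp in young libraries, which overlap, and no peak was strong. One region, chr4:139818281-139818454, was in 3 old and 0 young libraries. Pax7 was not called without old replicate 1 or 2 or without young replicate 1 or 3, where the log2 change was 0.88, 0.96, 1.00 and 0.87, nor without scaling, without the limit on low loci, with 20 kb flanks or with total covered length as a covariate. Without those replicates, in the same order, 0.521%, 0.153%, 0.0887% and 0.249% of all loci were called wider.

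**Figure D4:**
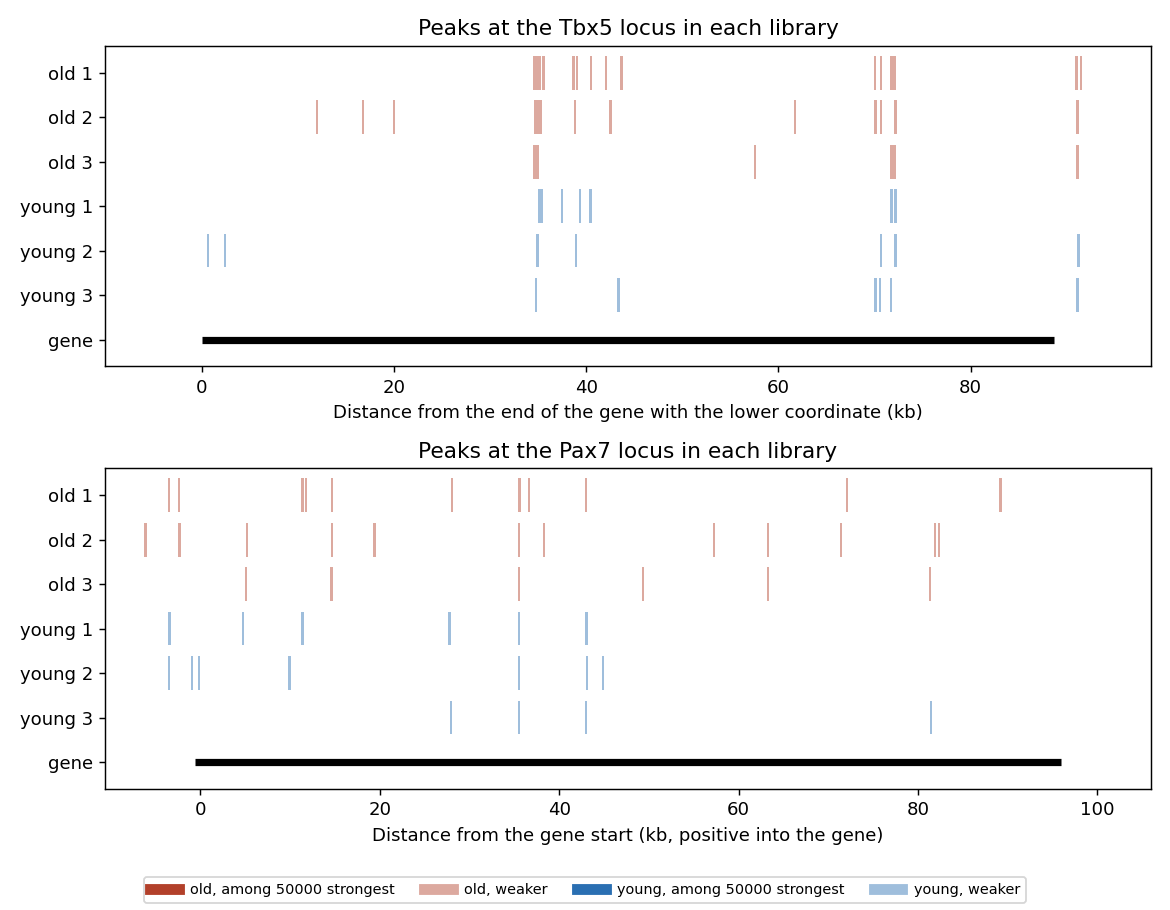
Peaks of the deposited lists at the Tbx5 and Pax7 loci by distance along the gene (kb), one row per library, old in red above young in blue, with the gene in black; none is among the 50000 strongest. Tbx5 has 2 sites common to all 6 libraries whose unscaled lengths are greater in the old libraries, and Pax7 has 1 region common to all 6. Most regions of both loci are in a single library, 19 of 25 at Tbx5 and 22 of 30 at Pax7.

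Tbx4, which shapes hindlimb and lung mesenchyme, and its neighbour on chromosome 11 Tbx2, a factor of the atrioventricular canal, had lower values in old libraries on both kinds of list. Tbx4 had 1906, 1681 and 1473 bp in old and 2216, 2108 and 2379 bp in young libraries on the deposited lists, and Tbx2 had 3123, 1788 and 2420.1 bp in old and 3485, 2967 and 3250.2 bp in young libraries. The ages lay apart at Tbx4 and overlapped at Tbx2, with log2 changes of -0.37 (SE 0.11) and -0.41 (SE 0.15). Neither was among the called loci. On the strong lists Tbx2 had 994, 994 and 1146 bp in old and 1205, 1675 and 1475 bp in young libraries, and Tbx4 had 392, 536 and 444 bp in old and 611, 701 and 1109 bp in young libraries. There the ages lay apart at both, with log2 changes of -0.40 (SE 0.14) and -0.59 (SE 0.22).

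Tbr1, a factor of cortical neurons, had 1796, 869 and 1418 bp in old and 2229, 1945 and 2075 bp in young libraries, with a log2 change of -0.59 (SE 0.18). Tbx1, a factor of the pharyngeal arches, had 1323, 1028 and 1265 bp in old and 1594, 1456 and 1331 bp in young libraries, with a log2 change of -0.24 (SE 0.13). At both loci the old values lay below the young ones. Tbx5 and Pax7 were the 2 members whose old values all lay above the young ones, which held for 8.63% of all loci. Tbr1, Tbx1 and Tbx4 were the 3 whose old values all lay below, which held for 8.36% of all loci. Together they were 5 of 27, where 17.0% of all loci lay apart in one direction or the other. None of the 3 lower ones was called in the fit by age alone, and Tbr1 was called narrower with a replicate block, where 1.00% of all loci were. Without old replicate 1, Tbr1, Tbx2 and Pax3, a neural crest and muscle progenitor factor, were called narrower, and so were 253 of 16894 loci in all.

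Pax5, Tbx21, Eomes and Mga were not called on the deposited lists. Pax5 had 3107, 3550.4 and 2726 bp in old and 3279, 1867 and 3122 bp in young libraries, with a log2 change of 0.20 (SE 0.19). Tbx21 had 1506, 1423 and 1282 bp in old and 1545, 1436 and 831 bp in young libraries, with a change of 0.16. Eomes had 1904, 2139 and 2228 bp in old and 2752, 1898 and 2078 bp in young libraries, with a change of -0.08, and Mga had a change of -0.01. In all 4 loci the ages overlapped on the deposited lists.

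Pax5 had a start peak in 1 old and 1 young library, and its one strong site was inside the gene, chr4:44704191-44704880, 6.16 kb from the start. It ranked 23396, 28330 and 23543 in old and 30581, 39985 and 46318 in young libraries. The share of all sites whose ranks lie apart by age was not computed for Six4 or Pax5, so no order of the ages is read from these ranks. The strong site of Eomes, chr9:118489377-118489941, lies 11.5 kb downstream of its start, beyond the gene, and ranked 12911, 14076 and 25855 in old and 10542, 14396 and 5561 in young libraries. Tbx21 had no strong peak. Pax8, a thyroid and kidney factor with no start peak, had the strongest site of the PAX loci 22.2 kb into the gene, with ranks of 3798, 4894 and 3994 in old and 8441, 7243 and 5788 in young libraries. As at Six4 and Pax5, no order of the ages is read from the Pax8 ranks.

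The other members were not called on the deposited lists. Pax2, a kidney factor, Pax6, an eye and islet factor, Pax8 and Pax9 had log2 changes between -0.04 and 0.14, and Pax3 had -0.30 (SE 0.18). Tbx3, a limb and mammary factor, Tbx6, Tbx10, Tbx15, Tbx18, Tbx19, a pituitary factor, and Tbx20, a heart factor, had changes between -0.14 and 0.25. Six2 had 0.29 (SE 0.18), Six3, a forebrain factor, -0.12, Six4 0.03, Six5 0.08 and Six6 -0.36 (SE 0.25). By family, the median change was 0.10 over the 7 PAX loci tested, -0.03 over the 15 T-box loci and 0.03 over the 5 SIX-family loci.

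Among 14380 loci on the strong lists, 12 members entered the fit, and Six2 was the 1 called, wider in old. Of all loci there, 0.841% were called wider, and nothing is read from this count either. No member was narrower, where 0.438% of all loci were called narrower. At an unadjusted p under 0.05 there were 5 members of 12, where 14.8% of all loci were. The smallest adjusted limma p among the other 11 was 0.22, for Tbx2. Six2 had 1149, 1154 and 1332 bp in old and 497, 212 and 472 bp in young libraries, with a log2 change of 1.29 (SE 0.22). Its young mean, 393 bp, was under the limit of 500 bp, so Six2 entered the fit through its old libraries (mean 1212 bp). Tbx4 entered through its young libraries, with means of 457 bp in old and 807 bp in young. Six2 was the 1 member whose old values all lay above the young ones, where 9.88% of all loci did. At Tbx2, Tbx4 and Tbx6 they all lay below, where 10.5% of all loci did, which makes 4 of 12 apart where 20.3% of all loci were. Tbx6 had 1544, 1414 and 1358 bp in old and 1629, 1923 and 1761 bp in young libraries, a log2 change of -0.27 (SE 0.11).

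Tbx18 and Tbx15 had changes of 0.66 (SE 0.28) and -0.55 (SE 0.26), with overlapping ages. Tbx18 had 1789.5, 1133 and 807 bp in old and 625, 979 and 498 bp in young libraries, and Tbx15 had 1740.2, 709 and 956 bp in old and 1945, 1499 and 1548 bp in young libraries. Pax8, Tbx3, Tbx10, Mga, Six4 and Six5 had changes between -0.18 and 0.14. The median over the 12 was -0.07, against -0.0019 over all loci. The Six2 call was lost without any one of old replicates 1, 2 and 3 or young replicates 1 and 3, with log2 changes between 1.23 and 1.42, and stayed without young replicate 2 (1.04). In the refits that lost it, 0, 5, 5, 47 and 88 loci in all were called wider, against 121 with all libraries. The Six2 call was also lost with lists of 40000, 75000 or 100000 peaks, where the log2 change was 0.94, 0.82 and 0.05. In those lists 146, 107 and 125 loci in all were called wider.

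**Figure D5:**
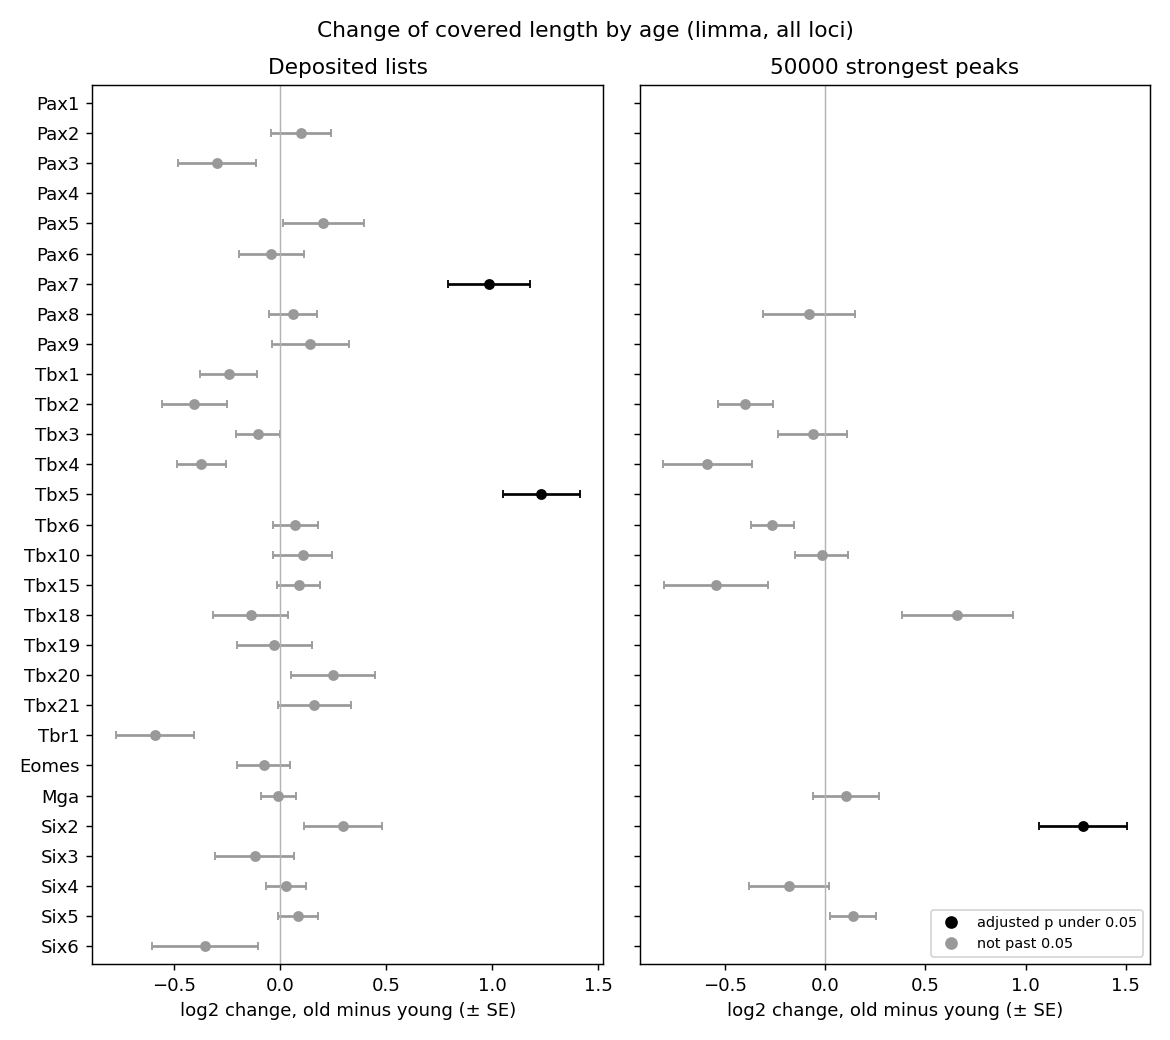
Log2 change of covered length, old minus young, with its standard error, for each member tested on the deposited lists (left) and on the 50000 strongest peaks (right); black points had an adjusted p under 0.05 over all loci. Tbx5 and Pax7 are the black points on the left and Six2 on the right, and the other tested members lie between -0.59 and 0.66.

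The summed length of 8 mesenchymal stromal marker loci, among them Pdgfra, Prrx1, Col1a2 and Cxcl12, was greater in old libraries on the strong lists. It was 12255, 12276 and 13409.6 bp in old and 9476, 9221 and 9554 bp in young libraries, and none of the 8 was at 0 in all libraries. How often sums over other sets of loci lie apart by age was not computed. On the deposited lists the ages overlapped, at 37968, 34675 and 35358 bp in old and 38976, 35118 and 38541 bp in young libraries. Of the 6 stromal loci tested on the strong lists, 4 had higher values in old, led by Pdgfra (log2 change 1.48, SE 0.56) and Prrx1 (0.76, SE 0.16), and Col1a2 and Cxcl12 had -0.09 and -0.08. On the deposited lists 6 of 8 had lower values in old. None of the stromal loci was called by limma on either list (2 at an unadjusted p under 0.05 on each), and their part in the Six2 result was not tested. The summed length of 10 macrophage marker loci on the strong lists was 17688, 17949.8 and 17458 bp in old and 21299, 20585 and 21373 bp in young libraries, with Mertk called narrower (log2 change -0.53, SE 0.09). On the deposited lists the macrophage sums overlapped, at 37283, 36915 and 34928 bp in old and 37176, 37131 and 36728 bp in young libraries. Mertk was not called there (log2 change -0.15, SE 0.07). Peaks lay at the macrophage loci at both ages, but B-lineage loci held them as well, so a peak at a marker locus does not by itself mark the cell type. B-lineage loci had 9777 to 11219 bp in old and 8911 to 10228 bp in young libraries, and T and NK cell loci 4979 to 6078 bp in old and 4894 to 6002 bp in young libraries, with Cd3e, Ncr1, Klrb1c and Prf1 at 0 in all. No locus of these 2 lists was called on either kind of list, where at most 1 per list had an unadjusted limma p under 0.05.

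Partner genes were read from lists made with earlier results of these data known. Of 13 tested partners of the SIX-family and PAX factors, such as the EYA cofactor genes, 0 were called by limma on the deposited lists (3 at an unadjusted p under 0.05) and their median change was 0.01. On the strong lists 8 of the 14 listed were tested, and all 8 had higher values in old, with a median of 0.23. Of these, 0 were called by limma (4 at an unadjusted p under 0.05). Over all loci there, 49.6% had higher values in old, the median was -0.0019 and 14.8% had an unadjusted p under 0.05. As the list was made with earlier results known, nothing is read from these counts. Gdnf, the kidney growth factor gene, and Ret, the gene of its receptor, had the smallest p there, with log2 changes of 0.64 (SE 0.16) and 0.73 (SE 0.24). Of 12 T-box partners and targets, Mef2c, a heart and immune cell factor, was the 1 called on the deposited lists, narrower in old (log2 change -0.32, SE 0.07), and 0 of 4 were called on the strong lists (2 at an unadjusted p under 0.05), where Mef2c had -0.33. Of 13 genes of the Mga complex, among them Max and E2f6, 0 were called on either list (1 at an unadjusted p under 0.05 on each), with medians of 0.07 on the deposited and 0.03 on the strong lists.

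Pooled over the 29 loci, peaks formed 561 regions on the deposited lists, of which 120 were in all 6 libraries and 273 in a single library. A region was in 3 old and 0 young libraries at Pax7 and at Eomes, and in 3 young and 0 old libraries at Pax8, Tbx1, Tbx2 and Eomes. These shares were not computed over the regions of all loci, so nothing is read from them. Tbx15 had the most shared regions, 14 of 42, while Tbx6 had 7 of 9, Six5 8 of 11 and Pax5 4 of 69.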

How the data were processed

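Peaks were analysed from 6 Omni-ATAC libraries, 1 MACS2 broad peak list each. Per the submitters' processing notes, MACS2 2.1.0.20140616, Bowtie2 2.2.6, Picard, SAMtools, cutadapt 1.14 and Trim Galore 0.4.4 were used with the build mm10, with no roles given. The authors deposited for each peak a score, a fold enrichment (a ratio over local background), a −log10 p and a −log10 q, which served here only for ranking and filtering inside a list. Read depth is unknown.

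Gene spans and starts came from RefSeq tables (GRCm38.p6). Covered bp per locus were scaled so that every library had the same total over all loci. Lengths of single regions and of start windows were not scaled. Loci averaging at least 500 bp entered limma 3.58.1 (R 4.3.3; robust fit with a trend). The fit gave old minus young on log2(bp + 200), with p-values adjusted over all loci by Benjamini-Hochberg and a threshold of 0.05, on the deposited lists and on the 50000 peaks with the highest −log10 q. Fold changes on this scale understate sparsely covered loci. The fit was tested on simulated data. Python 3.11.15, numpy 2.4.6, pandas 2.3.3 and matplotlib 3.10.9 were used.

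The members and lists were chosen with earlier results of these data known. Values per library are given for called members, for those with ages apart and a log2 change of 0.3 or more in size, for Pax5, Tbx21, Eomes and Mga, for the 3 longest and 3 shortest covered lengths, and for at most 2 genes per other list; further members and sites were chosen after their values were seen. Alternatives were other −log10 q limits, pseudocounts, low-value limits, scalings and flanks, total covered length as a covariate, a replicate block, and each library left out in turn.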

Additional observations from a re-analysis of the deposited data

How the results depend on the processing

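The counts of called members were small and moved with most settings. On the deposited lists, 2 members were wider in old. The count was 1 with a −log10 q of at least 2, a limit of 1000 bp, 20 kb flanks or total covered length as a covariate, and 0 with a −log10 q of at least 5, no limit, no scaling or 5 kb around both gene ends, where both loci fell below the limit. Over all loci, 3, 0 and 2 were called wider with a −log10 q of at least 5, no limit and no scaling. The count of wider members was 1 to 2 when each library was left out. The count of narrower members, 0 in the fit by age alone, was 0 to 3 when each library was left out. On the strong lists 1 member, Six2, was wider, and the count was 0 with a pseudocount of 50 bp, a limit of 1000 bp, no scaling, no flank, 5 kb around both gene ends or total covered length as a covariate, and 0 to 1 when each library was left out. Over all loci there, 1 was called wider without scaling, 0 with that covariate and 0 to 88 when each library was left out. With a pseudocount of 50 bp 96 loci were called wider and with no flank 105, against 121 in the main fit. Lists of 30000, 40000, 75000 and 100000 peaks, added after seeing the data, gave 0 wider members. In these lists 96, 146, 107 and 125 loci in all were called wider. With 75000 peaks 1 member was narrower, Tbx2, where 80 loci in all were. Start peaks in all libraries were at 13 members, and at 5 with a −log10 q of at least 5 and 5 on the strong lists, and 13 to 14 when each library was left out. The cause of these changes was not tested.

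A replicate block gave 2 wider and 1 narrower member, Tbr1, on the deposited lists, where 1.00% of all loci were called narrower. On the strong lists it gave 0 wider and 0 narrower members, but 0 of 14380 loci were called there at all, so that loss says nothing about Six2. Same-numbered libraries had correlations of 0.14, 0.14 and -0.16 on the deposited and 0.04, 0.05 and 0.03 on the strong lists. Differently numbered ones had -0.33 to 0.27 on the deposited and -0.065 to 0.028 on the strong lists. The same-numbered ones were thus the highest on the strong lists alone. These values do not settle whether the numbers pair the libraries, and the labels do not say. Without scaling, the median change of all loci was -0.14 on the deposited and -0.11 on the strong lists. Of 709 values of single members under these alternatives, 592 were counted as the same, 93 moved by more than their error and 24 were no longer called. For members not called in the main fit, the same meant a move smaller than the error, whether or not the member became called. On the deposited lists Tbr1 became called in 2 alternatives and Pax3 in 1, and Tbx2 did in 1 on each kind of list. Tbx5 was called in 15 of 17 alternatives, Pax7 in 7 of 15 and Six2 on the strong lists in 5 of 19. Read depth is unknown, so weak peaks such as those of Tbx5 and Pax7 cannot be set against the number of reads.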
